A study of Mus musculus with 8 samples.

Results

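The 10 genes described here are signals of the stroma that surrounds the crypts of the colon. They include the Wnt ligands Wnt2b, Wnt4, Wnt5a and Wnt5b and the R-spondins Rspo1, Rspo2 and Rspo3. The others are the secreted inhibitor Sfrp1, the Dickkopf family member Dkk3 and the transcription factor Foxl1. All 10 were chosen by name, with earlier results of these data known. Each symbol matched 1 of the 52636 gene identifiers of the count table. Bulk RNA-seq was made from whole colon of germ-free female C57BL/6 mice of wild-type genotype, 6 weeks old and kept in gnotobiotic isolators. At day 30 colon was taken from controls (3 libraries), from mice gavaged with Candida albicans SC5314 (3 libraries) and from mice gavaged with Candida tropicalis MYA-3404 (2 libraries). No transgene or Cre was named, and the labels give neither the segment of the colon nor whether the numbered libraries came from different animals. P-values therefore reflect library-to-library spread, which may be technical. With 8 libraries in all, 16195376 to 19761098 counts each, 9 of the 10 genes passed the filter on low counts, and Rspo2 did not.

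Wnt ligands are secreted lipid-modified proteins that bind Frizzled receptors, and R-spondins bind Lgr receptors and prolong Wnt signalling by removing the E3 ligases that clear Frizzled from the cell surface. In the intestine these signals come largely from stromal cells below the crypts, where they maintain the epithelial stem cells. Wnt2b acts mainly through beta-catenin, while Wnt5a and Wnt5b are best known for beta-catenin-independent signalling and Wnt4 can act through either route. Sfrp1 binds Wnt proteins and keeps them from their receptors, Dkk3 is a divergent member of the Dickkopf family, and Foxl1 marks subepithelial telocytes, a source of Wnt ligands.

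On GRCm38 Sfrp1 is ENSMUSG00000031548 (chromosome 8, 23411502 to 23449632, plus strand). Dkk3 is ENSMUSG00000030772 (chromosome 7, 112116017 to 112159057, minus strand). The Wnt ligand genes are Wnt2b (ENSMUSG00000027840, chromosome 3, 104945272 to 104961921, minus strand), Wnt4 (ENSMUSG00000036856, chromosome 4, 137277489 to 137299726, plus strand), Wnt5a (ENSMUSG00000021994, chromosome 14, 28504750 to 28527448, plus strand) and Wnt5b (ENSMUSG00000030170, chromosome 6, 119432531 to 119544347, minus strand). Rspo1 (ENSMUSG00000028871) spans chromosome 4 from 124986430 to 125009099 on the plus strand. Rspo2 (ENSMUSG00000051920) spans chromosome 15 from 43020794 to 43170826 and Rspo3 (ENSMUSG00000019880) chromosome 10 from 29452416 to 29535867, both on the minus strand. Foxl1 (ENSMUSG00000097084) is a single exon on chromosome 8 from 121127940 to 121130644, on the plus strand. The library kit keeps no strand, so reads of antisense partners cannot be separated. Gm48159 covers 13.1% of the exon bases of Rspo3 and was listed with 0 counts. Gm2670 covers 4.58% of those of Wnt5a with 18 counts, against 1664 for Wnt5a. How reads over shared bases were counted is not given, so these counts do not show the size of any effect.

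RefSeq promoter windows on GRCm38.p6 were at hand for 4 of the 10 genes (Wnt2b, Wnt4, Wnt5b and Rspo1). Those of Wnt5b and Rspo1 are shown because both genes were lower in each C. tropicalis library than in every other library. Their windows also end at the base just before the gene model. Each is the 250 bases before the start, 5′ to 3′ on the gene's strand, with the letters GGGCGG of a GC box in capitals. The Wnt5b window is chr6:119544348-119544597 (minus strand) and that of Rspo1 is chr4:124986180-124986429 (plus strand).
Wnt5b: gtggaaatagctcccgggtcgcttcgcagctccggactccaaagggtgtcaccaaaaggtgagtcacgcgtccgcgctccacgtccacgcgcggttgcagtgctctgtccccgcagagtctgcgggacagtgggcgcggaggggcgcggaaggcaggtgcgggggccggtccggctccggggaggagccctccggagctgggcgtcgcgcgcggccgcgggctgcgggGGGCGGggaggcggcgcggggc
Rspo1: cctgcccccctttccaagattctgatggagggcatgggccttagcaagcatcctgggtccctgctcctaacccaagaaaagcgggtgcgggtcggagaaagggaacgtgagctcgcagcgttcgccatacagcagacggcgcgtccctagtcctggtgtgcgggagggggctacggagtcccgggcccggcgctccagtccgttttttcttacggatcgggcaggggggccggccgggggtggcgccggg
The Wnt5b window shown was 75.2% G and C and held 1 GC box 22 bases before the start, a motif found in 32.7% of 32851 RefSeq windows of the same length. The Rspo1 window was 66.8% G and C, against a median of 52.4%, and held none of the 7 motifs searched on both strands. The other 6 were ATCAAAG (TCF/LEF, 3.21% of windows), GACCACCCA (GLI, 0.225%), CACGTG (E-box, 6.02%), TGTTTAC (FOX, 3.17%), CCAAT (33.8%) and TGACGTCA (CRE, 1.55%). Wnt5b has other RefSeq starts inside the gene, whose windows are not shown. The window at chr6:119449387-119449636 held 1 ATCAAAG, 71 bases before its start, and 2 GC boxes. A match or its absence describes only these letters in this window.

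Levels of different genes were compared as CPM per kilobase of exon, where CPM is the count scaled by library size and by TMM, edgeR's normalization between libraries. Dkk3 (16.2 on average over the 8 libraries) and Sfrp1 (10.8) were the most abundant. Foxl1 (2.04), Wnt5b (1.99), Wnt2b (1.90), Wnt5a (1.502), Wnt4 (1.31) and Rspo3 (1.17) formed a middle group, followed by Rspo1 (0.570) and Rspo2 (0.0512). Between neighbours in this order the difference exceeded the larger SD over the 8 libraries in 3 steps, from Sfrp1 to Foxl1, from Rspo3 to Rspo1 and from Rspo1 to Rspo2. Dkk3 lay above Sfrp1 in 8 of 8 libraries although that step was within the SD (5.43 against 5.81 CPM per kilobase).

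In 8 of the 10 genes the group means were lowest with C. tropicalis, and in none of the 9 tested genes did a difference pass the threshold of an adjusted p of 0.05. The exceptions were Wnt2b, with its highest mean in C. tropicalis, and Foxl1, with its lowest mean in the controls. Sfrp1 and Dkk3 were the genes nearest the threshold. Levels in the next paragraphs are CPM, listed in the order of the labels' replicate numbers.

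**Figure D1:**
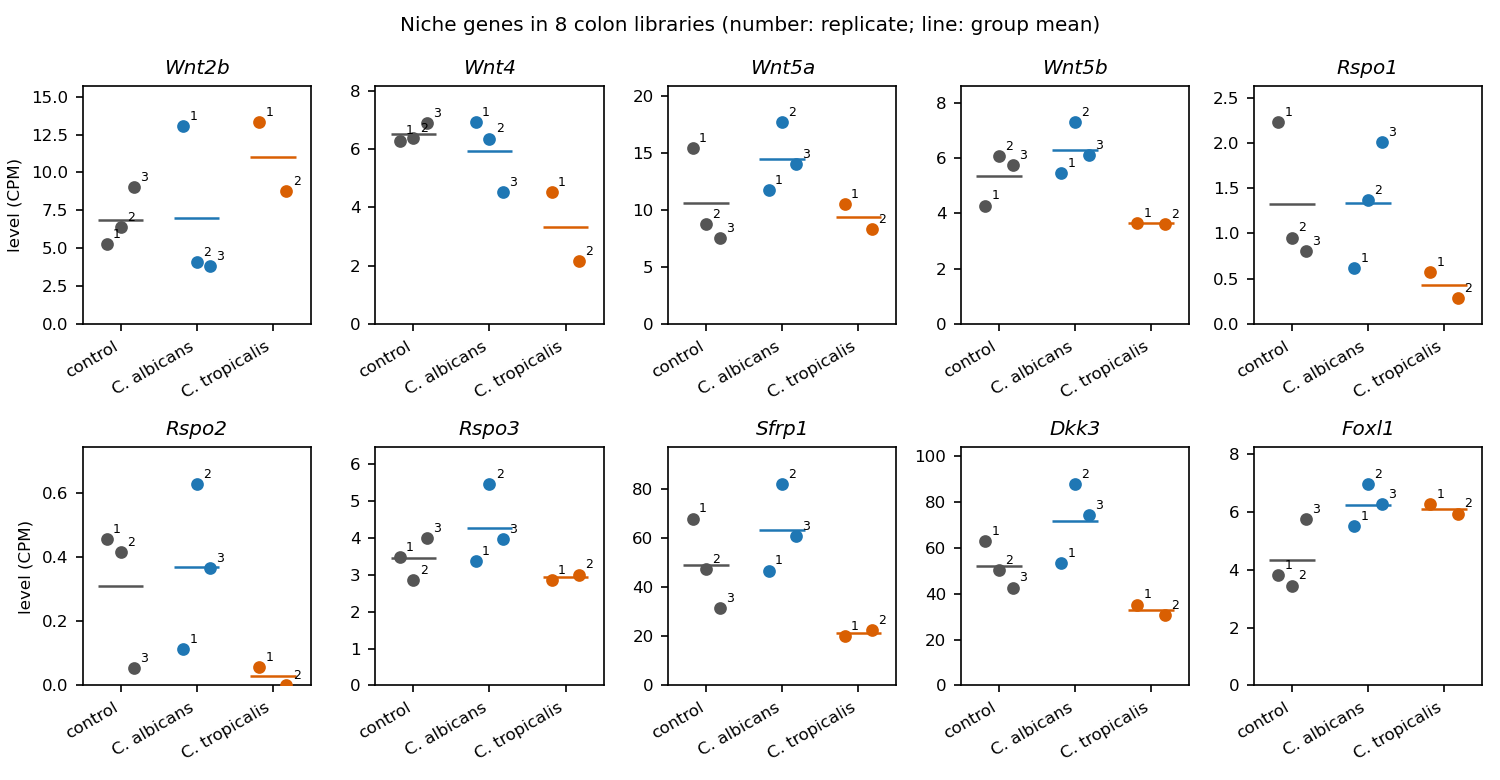
Level of each of the 10 genes in each library, in CPM (y axis, from 0, a separate scale for each gene) by group (x axis); points are libraries with their replicate number and lines are group means. Both C. tropicalis points of Sfrp1 (20.1 and 22.4) and Dkk3 (35.2 and 30.8) lie below every other library.

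Sfrp1 was at 67.9, 47.2 and 31.5 CPM in controls, 46.7, 82.0 and 60.9 with C. albicans, and 20.1 and 22.4 with C. tropicalis. The C. tropicalis libraries lay below all others, while controls and C. albicans overlapped. Against C. albicans the log2 difference was -1.57 ± 0.33 (SE; means 21.2 ± 1.61 and 63.2 ± 17.8 CPM, SD, n = 2 and 3), with an adjusted p of 0.0658 in edgeR's quasi-likelihood test. Against control it was -1.20 ± 0.33 (edgeR adjusted p = 0.208), and that of C. albicans against control was 0.37 ± 0.28 (edgeR adjusted p = 0.525), running from 0.14 without control 3 to 0.68 without control 1.

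Dkk3 was at 62.8, 50.1 and 42.5 CPM in controls, 53.2, 87.8 and 74.2 with C. albicans, and 35.2 and 30.8 with C. tropicalis. It had the same arrangement as Sfrp1, with C. tropicalis below all other libraries and the other groups overlapping. C. tropicalis differed from C. albicans by -1.12 ± 0.24 on the log2 scale (edgeR adjusted p = 0.0658) and from control by -0.65 ± 0.23 (edgeR adjusted p = 0.268). C. albicans against control gave 0.47 ± 0.20 (edgeR adjusted p = 0.319), and 0.30 without C. albicans 2.

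Among the ligands, Wnt4 was at 6.28, 6.37 and 6.88 CPM in controls, 6.91, 6.35 and 4.51 with C. albicans, and 4.51 and 2.15 with C. tropicalis. The controls lay within a narrow range, and C. albicans 3 and C. tropicalis 1 were nearly level. The log2 difference of C. tropicalis was -0.97 ± 0.34 against control (edgeR adjusted p = 0.266) and -0.83 ± 0.34 against C. albicans (0.187). Without C. tropicalis 2 these came to -0.53 and -0.39, and without C. tropicalis 1 to -1.59 and -1.46.

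Wnt5b was at 4.28, 6.08 and 5.75 CPM in controls, 5.45, 7.30 and 6.097 with C. albicans, and 3.65 and 3.63 with C. tropicalis. Both C. tropicalis libraries again lay below the rest. The log2 difference was -0.79 ± 0.26 against C. albicans (edgeR adjusted p = 0.118) and -0.56 ± 0.26 against control (0.338).

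Wnt5a was at 15.4, 8.76 and 7.53 CPM in controls, 11.7, 17.7 and 14.0 with C. albicans, and 10.5 and 8.33 with C. tropicalis. The C. tropicalis libraries lay below the 3 C. albicans libraries and within the range of the controls. The log2 difference between the species was -0.62 ± 0.32 (edgeR adjusted p = 0.287), and against control it was -0.17 ± 0.32.

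Wnt2b was the ligand with the widest spread: 5.25, 6.37 and 9.03 CPM in controls, 13.0, 4.09 and 3.84 with C. albicans, and 13.3 and 8.78 with C. tropicalis. C. albicans 1 stood apart from the other 2 of its group and level with C. tropicalis 1, so the groups overlapped. The log2 difference of C. tropicalis was 0.66 ± 0.51 against C. albicans (edgeR adjusted p = 0.487) and 0.68 ± 0.51 against control (0.535). Without C. albicans 1 the species difference was 1.44 ± 0.33 (edgeR adjusted p = 0.0377), so that library decided the value, and C. albicans against control moved from 0.02 to -0.76. Without C. tropicalis 1 its difference was 0.33 against C. albicans and 0.35 against control.

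The summed level of the 4 ligands overlapped between groups, at 6.33 to 6.92 CPM per kilobase in controls, 6.08 to 8.31 with C. albicans and 5.03 to 6.96 with C. tropicalis. Its makeup differed between libraries. Wnt2b contributed 45.5% and 41.5% of the sum in the C. tropicalis libraries, 19.8%, 23.5% and 31.1% in controls, and 37.4%, 13.0% and 15.0% with C. albicans. The C. tropicalis shares were above those of the other 6 libraries, a description that was not tested.

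Of the R-spondins, Rspo3 was at 3.48, 2.86 and 3.98 CPM in controls, 3.37, 5.46 and 3.96 with C. albicans, and 2.86 and 3.00 with C. tropicalis. The C. tropicalis libraries overlapped the controls and lay below C. albicans, with a log2 difference between the species of -0.54 ± 0.30 (edgeR adjusted p = 0.322), and -0.33 without C. albicans 2.

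Rspo1 was low in all groups, at 2.23, 0.953 and 0.807 CPM in controls, 0.618, 1.36 and 2.01 with C. albicans, and 0.571 and 0.283 with C. tropicalis. The 2 lowest values were from C. tropicalis, although C. albicans 1 was close to them. The log2 difference of C. tropicalis was -1.62 ± 0.69 against either other group (edgeR adjusted p = 0.315 against control and 0.201 against C. albicans). These values rest on 10 and 5 counts in the C. tropicalis libraries, and the difference against control ran from -2.20 without C. tropicalis 1 to -1.03 without control 1.

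Rspo2 had 37 counts in all, too few to be tested: 8, 7 and 1 in controls, 2, 12 and 6 with C. albicans, and 1 and 0 with C. tropicalis. The 0 in C. tropicalis 2 allows up to 3 counts, or 0.170 CPM, a limit that covers counting error only. With no filter on low counts Rspo2 gave a log2 difference of -3.41 ± 1.297 between the species (edgeR adjusted p = 0.184), a value that depends on the prior count. The summed level of the 3 R-spondins was 1.12 and 1.23 CPM per kilobase with C. tropicalis, below the 1.499 to 2.37 of controls and the 1.43 to 2.59 of C. albicans. This description was not tested. Rspo3 alone overlapped the controls, so the separation of the sum from them rests on the low counts of Rspo1 and Rspo2.

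Foxl1 was at 3.83, 3.46 and 5.75 CPM in controls, 5.51, 6.98 and 6.28 with C. albicans, and 6.28 and 5.95 with C. tropicalis. It was the only one of the 10 genes whose mean was higher with each species than in controls by over 0.4 on the log2 scale, at 0.52 ± 0.25 for C. albicans (edgeR adjusted p = 0.337) and 0.49 ± 0.27 for C. tropicalis (0.409), 2 comparisons that share their controls. Control 3 lay above C. albicans 1, and without it the value for C. tropicalis was 0.75. Between the species the difference was -0.03, with an unadjusted 95% interval of -0.65 to 0.58.

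**Figure D2:**
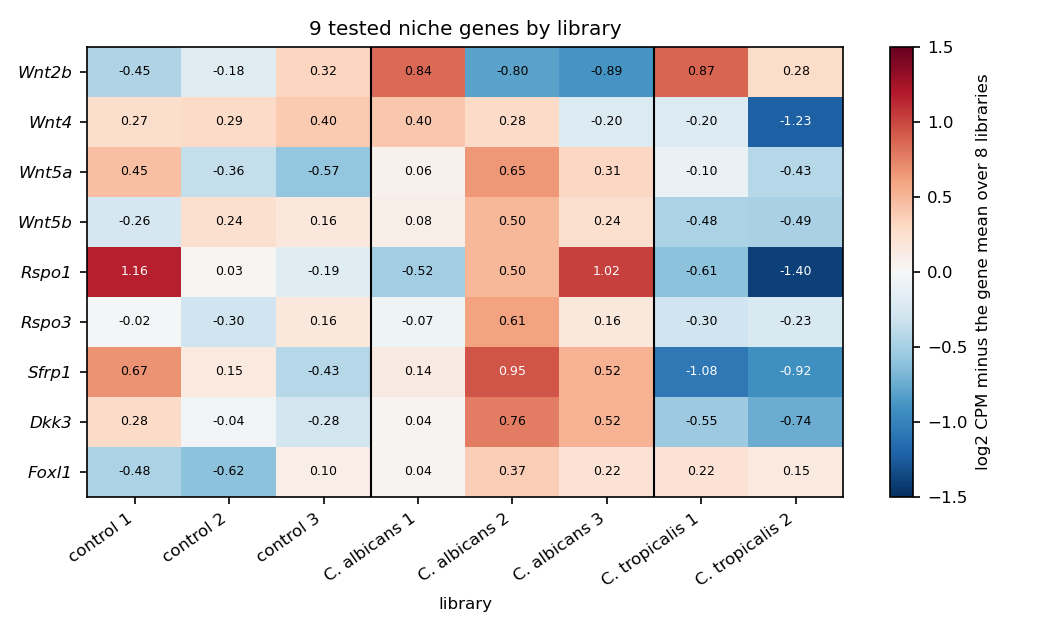
Level of the 9 tested genes (rows) in each library (columns) as log2 CPM minus the gene's mean over the 8 libraries; red is above and blue below that mean. The C. tropicalis columns are below the mean in 7 of 9 rows, all but Wnt2b and Foxl1, and C. albicans 2 is above it in all rows but Wnt2b.

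For C. albicans against control, 0 of the 9 tested genes passed in edgeR, where 0.0435% of all 16107 tested genes did, and DESeq2 also gave 0 (3.19% of all genes). At an unadjusted p under 0.05 there was 1, Dkk3, against 15.4% of all genes. No gene had groups that did not overlap, against 19.4% of all genes. Estimates lay above 0 in 7 of 9, against 48.2%, with a median of 0.31 against -0.02 over all genes.

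For C. tropicalis against control, 0 of 9 passed in edgeR (0.031% of all genes). DESeq2 called 1, Sfrp1 (log2 -1.20, DESeq2 adjusted p = 0.0147), where it called 2.68% of all genes. At an unadjusted p under 0.05 there were 4 of 9 (Sfrp1, Wnt4, Dkk3 and Rspo1), against 15.4% of all genes. C. tropicalis lay below all controls in 5 of 9 (Sfrp1, Dkk3, Wnt4, Wnt5b and Rspo1), against 16.5% of all genes, and above all controls in 1, Foxl1, against 16%. Estimates were below 0 in 7 of 9 (52.1% of all genes), with a median of -0.56 against -0.02.

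For C. tropicalis against C. albicans, 0 of 9 passed in edgeR, as did 0% of all genes. At an adjusted p under 0.1 there were 2, Sfrp1 and Dkk3, against 9.19% of all genes. At an unadjusted p under 0.05 there were 5 (these 2 with Wnt5b, Wnt4 and Rspo1), against 23.2%. In 7 of 9 genes both C. tropicalis libraries lay below all 3 C. albicans libraries, against 22.4% of all genes. For Wnt4 and Rspo1 the nearest libraries were almost level. They were at 4.511 and 4.512 CPM for Wnt4, and at 0.571 and 0.618 CPM for Rspo1. Estimates were below 0 in 8 of 9, against 46.3%, with a median of -0.79 against 0.04. In each comparison the counts set against all genes are descriptions only, as the members were chosen with earlier results of these data known.

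Sfrp1 and Dkk3 crossed the threshold of 0.05 between the species under several alternatives, in each of which many more genes were called. DESeq2 called both (adjusted p = 0.000111 and 0.000556) with 10.9% of all genes. In edgeR both passed with no filter on low counts (4.18% of all genes), with the 2 groups alone (5.47%), without control 1 (5.78%), without control 3 (5.62%) and without C. albicans 1 (8.2%), the last also calling Wnt2b. The edgeR adjusted p of Sfrp1 in these 5 fits ran from 0.0112 to 0.0382.

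**Figure D3:**
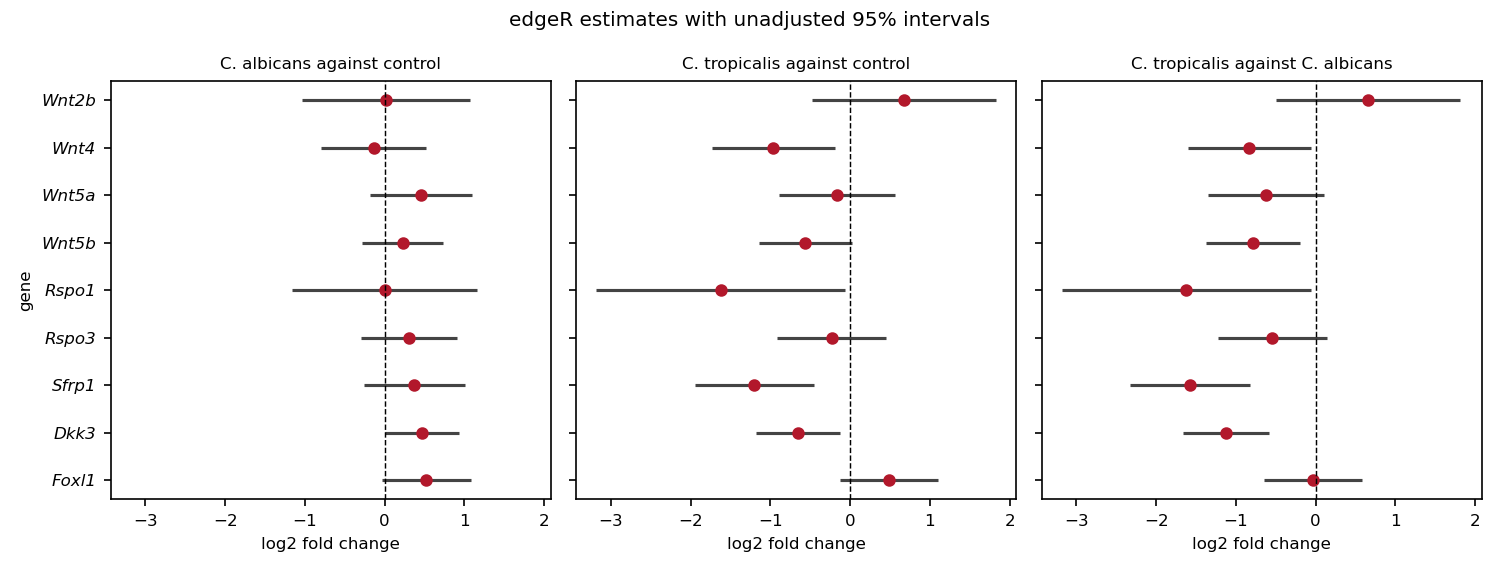
Log2 fold changes (x axis) of the 9 tested genes (y axis) in the 3 comparisons, as edgeR estimates with unadjusted 95% intervals; the dashed line is no difference. In the panel of C. tropicalis against C. albicans the intervals of Sfrp1 (-2.33 to -0.82) and Dkk3 (-1.66 to -0.58) lie farthest from 0.

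Markers of some other cells of the colon wall moved with these differences, and those of others did not. In whole colon, fewer cells of a type and less RNA per cell cannot be told apart. The summed level of 12 smooth muscle genes was 6542 to 12867 CPM in controls, 9589 to 27749 with C. albicans and 3685 to 4697 with C. tropicalis, and 12 of 12 had estimates below 0 between the species (median -1.90). For 10 fibroblast genes the sums were 1896 to 2212, 2405 to 3555 and 1456 to 1716 CPM, with 10 of 10 below 0 (median -0.66). The sum of 10 markers of PDGFRA-positive subepithelial cells, a list that includes Foxl1, was 141 to 151, 143 to 182 and 136 CPM, with 8 of 10 below 0 (median -0.34). No marker in these or the other lists passed the threshold in any comparison in edgeR.

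Other lists differed in how many estimates were below 0 between the species, where the share of all genes was 46.3%. Below 0 were 5 of 5 enteric neuron genes, 5 of 5 of enteric glia, 3 of 4 of interstitial cells of Cajal, 6 of 7 of endothelium and 5 of 6 of mesothelium. So were 4 of 4 tested of adipocytes, 3 of 6 of CD81-positive trophocytes, 5 of 9 of colon epithelium and 2 of 6 of immune cells. Summed over the lists, epithelial markers ran from 13401 to 20740 CPM and immune markers from 59.0 to 246 CPM over the 8 libraries. None of the markers was at 0 in all libraries. The most abundant were Des (2608 CPM on average) and Actg2 (2368) for smooth muscle, Col3a1 (464) and Fn1 (441) for fibroblasts, Pdgfra (37.1) and F3 (35.1) for subepithelial cells, Cd81 (110.2) and C3 (109) for trophocytes, and Ano1 (150.4) and Kit (60.2) for interstitial cells of Cajal. They were Uchl1 (26.4) and Tubb3 (19.4) for neurons, Sox10 (16.4) and Gfap (6.99) for glia, Eng (62.7) and Pecam1 (41.4) for endothelium, Fabp4 (24.5) and Cidec (17.8) for adipocytes, Krt8 (6809) and Muc2 (3714) for epithelium, and C1qa (54.1) and Cd79a (39.1) for immune cells. In the mesothelial list Krt19 (4116 CPM), which epithelium also expresses, stood far above Msln (3.41).

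A smooth muscle score, the mean log2 CPM of the 12 genes minus its mean over the libraries, was 0.51, 0.08 and -0.67 in controls, 0.00, 1.52 and 0.76 with C. albicans, and -1.21 and -0.99 with C. tropicalis. The C. tropicalis scores lay below all others, so species and score cannot be told apart across these groups. Within groups, Sfrp1 changed with the score by 0.68 ± 0.11 log2 per unit (edgeR adjusted p = 0.0138) and Wnt2b in the opposite direction, by -0.99 ± 0.23 (0.0451). Dkk3 had a slope of 0.45 ± 0.11 (0.0507), Wnt5a one of 0.53 ± 0.18 (0.136) and Rspo1 one of 0.85 ± 0.44 (0.349). The slopes of Rspo3, Wnt5b, Foxl1 and Wnt4 were 0.20 ± 0.22, 0.07 ± 0.20, -0.08 ± 0.21 and -0.14 ± 0.24. These slopes were computed after the data had been seen, and 4.66% of all genes passed. On the fibroblast score 0 of the 9 genes had a slope past the threshold or at an unadjusted p under 0.05, and 0% of all genes passed.

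**Figure D4:**
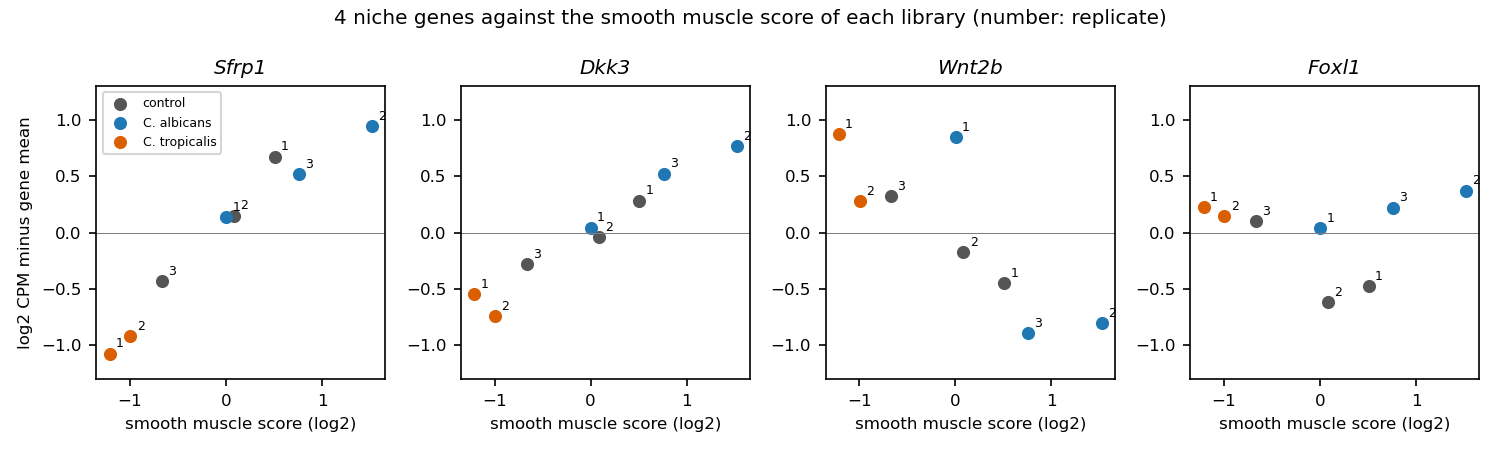
Log2 CPM minus the gene's mean (y axis) of Sfrp1, Dkk3, Wnt2b and Foxl1 against the smooth muscle score of each library (x axis, log2); points are libraries with their replicate number. Sfrp1 and Dkk3 are lowest in the 2 C. tropicalis libraries, at scores of -1.21 and -0.99, and highest in C. albicans 2, at 1.52.

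With the score as a covariate the species difference of Sfrp1 was -0.27 ± 0.25 in place of -1.57, and that of Dkk3 -0.24 ± 0.25 in place of -1.12. Wnt4 (-1.10 ± 0.56) and Wnt5b (-0.66 ± 0.46) stayed on the same side of 0 at a similar size. The estimates of Wnt2b (-1.02 ± 0.51), Wnt5a (0.40 ± 0.40) and Rspo1 (0.03 ± 1.27) changed sign. With the fibroblast score as the covariate, Sfrp1 was at -1.05 ± 0.50 and Dkk3 at -0.67 ± 0.35. In either fit 0 of 9 genes passed, a count without a comparison, as the share of all genes that passed is not given here. The part of smooth muscle or fibroblast content in the results was not tested.

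**Figure D5:**
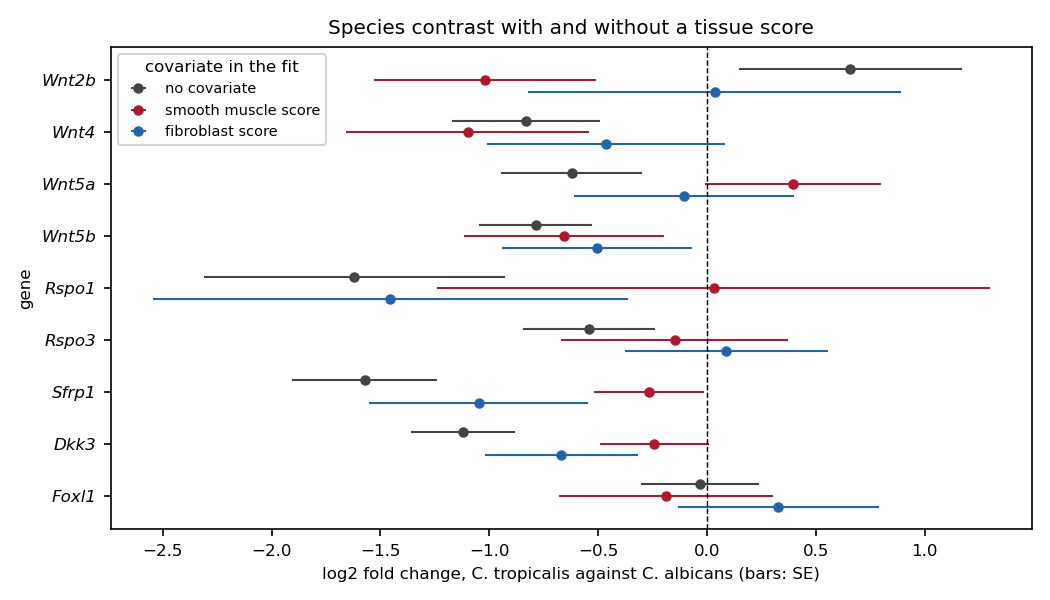
Log2 fold change of C. tropicalis against C. albicans (x axis; bars are SE) for the 9 tested genes (y axis) with no covariate, with the smooth muscle score and with the fibroblast score in the fit. For Sfrp1 the estimate is -1.57, -0.27 and -1.05 in that order, and for Wnt4 it is -0.83 with no covariate and -1.10 with the smooth muscle score.

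The tested genes most like each member over the 8 libraries, by the root mean square difference of centred log2 CPM among 13219 genes, were Meis2, Kit and Syt1 for Sfrp1 (0.0852 to 0.0864) and Mark1, Cbx6 and Antxr1 for Dkk3 (0.0662 to 0.0883). They were Fbn1, Slc43a1 and Lox for Wnt4 (0.136 to 0.255), Rassf2, Cyfip2 and Eva1b for Wnt5b (0.0624 to 0.1003), Filip1l, Dst and Rassf4 for Wnt5a (0.0891 to 0.0921), and Kcnj2, Tmem190 and Pla2g5 for Wnt2b (0.232 to 0.260). For Rspo1 they were Myrf, Mfsd6l and Grhl1 (0.236 to 0.348), for Rspo3 Cdk17, Rarg and Arhgap10 (0.0909 to 0.102), and for Foxl1 Slc25a22, Mier2 and Sf1 (0.0558 to 0.0874). Among the members themselves the closest to Sfrp1 was Dkk3 (0.265), and Wnt2b was farthest from its closest member (0.703, Foxl1).

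Of 81 other Wnt pathway genes in 7 lists, 62 were tested and 0 passed in edgeR in each comparison. At an unadjusted p under 0.05 there were 17 of 62 for C. albicans against control (15.4% of all genes), 10 of 62 for C. tropicalis against control (15.4%) and 19 of 62 between the species (23.2%). DESeq2 called 6 (3.19% of all genes), 3 (2.68%) and 12 (10.9%). The other ligands Wnt3a, Wnt8a and Rspo4, were listed at 0 in all libraries.

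Between the species 46.3% of all genes had estimates below 0. The receptors had 12 of 16 estimates below 0 (median -0.37), with Fzd9, a Frizzled receptor, at -3.33 ± 0.61 and Ror2, a receptor for Wnt5a, at -1.83 ± 0.34 (edgeR adjusted p = 0.0646 for both). Of 10 tested inhibitors 6 were below 0, with the Wnt-binding Frzb at -2.93 ± 0.61 (0.0658) and Dkk2 at -4.65 ± 1.13 (0.0694). Dkk2 averaged 0.170 CPM with C. tropicalis, where 3 counts are 0.171 and 0.170 CPM. Its estimate therefore rests on very few counts, and its size is uncertain. Among 15 tested target genes 7 were below 0, with Nkd1, a feedback inhibitor, at -1.20 ± 0.27 (0.0669) and Rgmb at -0.51 ± 0.19 (0.152). Axin2, a standard readout of beta-catenin signalling, was at 0.07 ± 0.15 (edgeR adjusted p = 0.814). The 4 tested R-spondin receptors and E3 ligases were all above 0, with Rnf43 at 0.78 ± 0.29 (0.152) and Lgr4 at 0.36 ± 0.17 (0.249).

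In the Hedgehog and Fox list 7 of 11 were below 0 between the species, with the mesenchymal factors Foxf1 at -1.22 ± 0.29 and Foxf2 at -1.04 ± 0.24 (edgeR adjusted p = 0.0676 for both), against -0.03 for Foxl1. Of the 4 other ligands tested 3 were below 0, with Wnt11 at -0.85 ± 0.49 (0.334). For secretion, Porcn, which acylates Wnt proteins, was at -0.44 ± 0.24 (0.314) and Wls, which carries them to the surface, at -0.25 ± 0.18 (0.435).

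For C. tropicalis against control, the smallest p-values in each list belonged to Dkk2 (log2 -4.27), Frzb (-2.06), Ccnd1 (0.61), Lef1 (-2.58), Rnf43 (0.89), Znrf3 (0.16), Ror2 (-0.93), Fzd2 (-0.79), Shh (-6.41), Ptch1 (-0.47), Wnt11 (-0.65), Wnt6 (-0.44), Wls (-0.28) and Porcn (-0.26), with edgeR adjusted p-values from 0.153 (Ccnd1) upward. Shh had 0 counts in both C. tropicalis libraries, and 22, 9 and 0 in the controls, so its estimate depends on the prior count. The estimate of Dkk2 also rests on very few counts, at 0.170 ± 0.0795 CPM with C. tropicalis (SD, n = 2). Its controls varied widely, at 3.43 ± 3.16 CPM (SD, n = 3). Without control 3, 3 pathway genes passed (Frzb, Dkk2 and Shh), where 1.2% of all genes did.

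For C. albicans against control they were Fzd9 (2.24), Fzd6 (-0.65), Foxf2 (0.96), Smo (0.62), Rgmb (0.71), Ccnd1 (0.48), Sfrp5 (0.87), Frzb (0.87), Lgr5 (-0.76), Lgr4 (-0.30), Wnt8b (-3.10), Wnt9a (0.17), Porcn (0.18) and Wls (-0.02), with edgeR adjusted p-values from 0.148 (Fzd9) upward. With no filter on low counts Fzd9 and Foxf2 passed (0.441% of all genes). Without C. albicans 1 the count was 7 (1.58% of all genes): Fzd2, Ror2, Nkd1, Ccnd1, Rgmb, Foxf1 and Foxf2.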

How the data were processed

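The deposited table gives raw counts (whole reads per Ensembl gene and library), which the authors did not normalize. Tools in the submitters' processing notes are DESeq 1.18.0, HTSeq (as 6.1) and TopHat2 2.0.12, with the build mm10; the sources used here give no strand setting or annotation release. Symbols, positions and exon lengths came from GENCODE M21 (GRCm38), which held 52489 of the 52636 identifiers, the other 147 having 0.00317% of counts.

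The main test was edgeR 4.0.16 under R 4.3.3 (TMM, filterByExpr, quasi-likelihood F-test) in one fit of 8 libraries with 3 contrasts. P-values were adjusted by Benjamini-Hochberg over 16107 genes, with a threshold of 0.05. The SE is the absolute log2 difference divided by the square root of F. The fit was also run on simulated data with known changes, for each species against control and not between the species. The outcome is not given here. The 10 genes and the marker and pathway lists were chosen with earlier results of these data known. All 10 members are named, with the 2 genes of smallest p in each pathway list and contrast, the 2 most abundant of each marker list, any listed at 0 throughout, and the 3 genes most like each member; Axin2 and some of the genes called under an alternative were added after their values were seen. Alternatives were DESeq2 1.42.0 as test and as size factors, upper-quartile factors, no filter, CPM of at least 1 in 3 libraries, the 2 groups alone, a replicate block, smooth muscle and fibroblast scores, an adjusted p under 0.1, and leaving out 1 library at a time. A lone C. tropicalis library is then taken to have the spread of the other groups. No 2 libraries of a group agreed within sampling noise (chi-square per degree of freedom at least 21.0). Totals were 16195376 to 19761098 counts, and 3 counts, the limit set by a count of 0, were 0.157 to 0.183 CPM. Figures were drawn with matplotlib 3.10.9.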

Additional observations from a re-analysis of the deposited data

How the results depend on the processing

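Of 459 estimates for the 9 tested members under the alternatives, 417 kept their sign and their side of the threshold, 14 kept their sign and passed, and 28 changed sign, in 12 of the 27 results. Members past the threshold were 0 in each contrast and stayed so for C. albicans against control. For C. tropicalis against control DESeq2 gave 1. Between the species there were 2 at an adjusted p under 0.1, 2 with DESeq2, 2 with no filter and 2 with the 2 groups alone, and 0 to 3 when a library was left out (2 without control 1 or control 3, 3 without C. albicans 1). Other pathway genes past the threshold were also 0 in each contrast. For C. albicans against control they came to 6 (DESeq2) and 2 (no filter), and for C. tropicalis against control to 3 (DESeq2). Between the species they came to 10 (adjusted p under 0.1), 12 (DESeq2), 9 (no filter) and 6 (the 2 groups alone). The shares of all genes for these settings are given above. Leaving out a library gave 0 to 7, 0 to 3 and 0 to 11 in the 3 contrasts. The 7 and 11 were without C. albicans 1, where 1.58% and 8.2% of all genes passed. The 3 was without control 3, where 1.2% passed. With the replicate number as a block all 6 counts were 0, and the share of all genes is not given here. In deviations from the group means, same-numbered libraries correlated at -0.39, -0.08 and -0.13 for control and C. albicans. The values were -0.02 and 0.03 for control and C. tropicalis, and 0.16 and 0.15 for the 2 species. No control library correlated best with the C. albicans library of its number, while C. albicans 1 and 2 each did with the same-numbered C. tropicalis library. Deviations from means of 2 or 3 libraries are tied to each other, so these values cannot decide whether the numbers pair the libraries. Sign changes for C. albicans against control were those of Wnt2b (-0.022 with upper-quartile factors, -0.17 with the block, -0.76 to 0.34 without a library), Rspo1 (0.020 with DESeq2, 0.015 with its size factors, 0.0081 with no filter, 0.074 with the block, -0.39 to 0.59 without a library), Wnt4 (-0.22 to 0.054 without a library) and Sfrp1 (-0.14 with the smooth muscle score). For C. tropicalis against control they were Wnt2b (-0.36) and Wnt5a (0.46) with the smooth muscle score, Wnt5a (0.10) and Rspo3 (0.10) with the fibroblast score, and Wnt5a without a library (-0.36 to 0.21). Between the species they were Wnt2b (-1.02), Wnt5a (0.40) and Rspo1 (0.030) with the smooth muscle score, Rspo3 (0.088) and Foxl1 (0.33) with the fibroblast score, and Foxl1 with the block (0.076) or without a library (-0.15 to 0.051). The cause was not tested. With 2 or 3 libraries a group, the low counts of Rspo1 and Rspo2 limit what could be detected.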

Other observations

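Wnt8b, a ligand gene outside the 10, differed widely among libraries of 1 group. It had 0, 30 and 212 counts in the controls, 26, 0 and 1 with C. albicans, and 136 and 153 with C. tropicalis. Its log2 difference between the species was 3.998 ± 1.60 (edgeR adjusted p = 0.179), and control 3 exceeded both C. tropicalis libraries.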
